A study of Mus musculus with 6 samples.

Results

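Secreted antagonists of WNT signalling (Sfrp1, Sfrp2, Frzb, Dkk1, Dkk3 and Notum) and genes switched on by WNT signalling that feed back on it (Axin2, Nkd1, Lef1 and Sp5) were read out in embryonic mouse heads. The 10 genes are a list of names, drawn up with earlier results of these data known, and a probe set was taken where the array annotation gives exactly 1 of these symbols, with no filter on brightness. Each gene had 1 such probe set, so 10 of the 35556 probe sets in the table were members, or 10 of the 21789 that carry 1 gene symbol (19938 genes). Heads came from C57Bl6 mouse embryos at E10.5, obtained by intercrossing Tasp1+/- mice, and the tissue was the prosencephalon and mesencephalon, the embryonic forebrain and midbrain. There were 3 heads labelled wild type (WT 1 to 3) and 3 labelled Taspase1 knock-out, Tasp1-/- (KO 1 to 3), each read on 1 Affymetrix array. Taspase1 is a protease that cleaves the histone methyltransferases of the MLL family and the TFIIA precursor, and a Tasp1-/- embryo carries the mutation in all of its cells. The question was which genes Taspase1 regulates during development.

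WNT proteins are secreted, lipid-modified signals that bind Frizzled receptors and LRP5 or LRP6 co-receptors, which spares β-catenin from destruction and lets it act with TCF and LEF factors on target genes. In the early head a WNT signal from the back and the dorsal midline opposes forebrain identity, and secreted antagonists made in and around the forebrain limit its range. The SFRP proteins, among them FRZB, carry a Frizzled-like domain and bind WNT proteins; DKK1 blocks the LRP co-receptors; NOTUM removes the lipid that WNT proteins need. AXIN2, NKD1, LEF1 and SP5 are products of common WNT target genes and are often read as a sign of ongoing signalling.

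Values are deposited log2 signals, so a difference of 1 is a doubling of signal, and each difference is the mean of KO-labelled heads minus the mean of WT-labelled heads. Tests are from limma, fitted on all 21789 probe sets with 1 symbol, two-sided; p-values were adjusted by Benjamini-Hochberg over the whole set, at a threshold of 0.05. The arrays had medians from 7.35 to 7.45, and their pairwise correlations across the brighter 60% of probe sets ran from 0.989 to 0.996. On the first principal component WT 1 scored 14.8, and the remaining heads scored between −6.29 and 0.32. WT 2 alone had a high signal of Xist and low signals of Y-linked genes, so the sexes were not balanced between the groups. The Tasp1 probe set itself was not lower with the KO label but higher: 8.59 ± 0.08 there and 8.34 ± 0.21 with the WT label (SD, n = 3 each). Every KO-labelled head was above every WT-labelled head. The difference was +0.24 (95% interval 0.02 to 0.46), with an unadjusted limma p of 0.033 and an adjusted p of 0.79. It is not known here whether that probe set reads the deleted stretch, so it cannot check the labels, and heads are called by label. Of the 8 measured forebrain and midbrain markers, Otx2, Sox2 and Lhx2 were each brighter than at least 94.8% of probe sets. En1 and Pax2 of that list were brighter than only 52.3% and 51.4%, and the median of the list was 87.0%. Of the 5 measured hindbrain markers, 4 lay among the dimmest 40%, and the 5th, Hoxb1, was brighter than 45.1%.

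Among the 10 genes, the clearest differences lay in the secreted antagonists and did not run one way. Sfrp1 was 0.88 times and Dkk3 0.86 times as high in KO-labelled heads, Frzb was 1.11 times as high, and Sfrp2, Dkk1 and Notum had intervals that included no difference. Of the feedback genes, Axin2, Nkd1, Lef1 and Sp5 stood between 0.95 and 1.06 times, and each of their 95% intervals included no difference. With limma, 0 of the 10 genes passed the adjusted threshold, as did 0 of all probe sets tested (0%), and the smallest adjusted p of a member was 0.37. At an unadjusted p under 0.05, 2 of 10 were lower and 1 of 10 was higher, against 3.89% lower and 2.32% higher over all probe sets (6.21% together). The groups did not overlap for 4 of 10, 2 in each direction, against 10.9% of all probe sets (6.76% lower and 4.15% higher). With so few genes, and a list drawn up in that way, these counts carry no test of their own. The median difference was −0.01 over the 10 genes and −0.01 over all probe sets tested. Over the 10 genes the 95% intervals of the ratio reached from 0.77 (Dkk3) to 1.27 (Dkk1), so these intervals held no doubling or halving of signal. A whole head is a mixture, in which fewer cells of a type and less RNA per cell cannot be told apart.

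**Figure D1:**
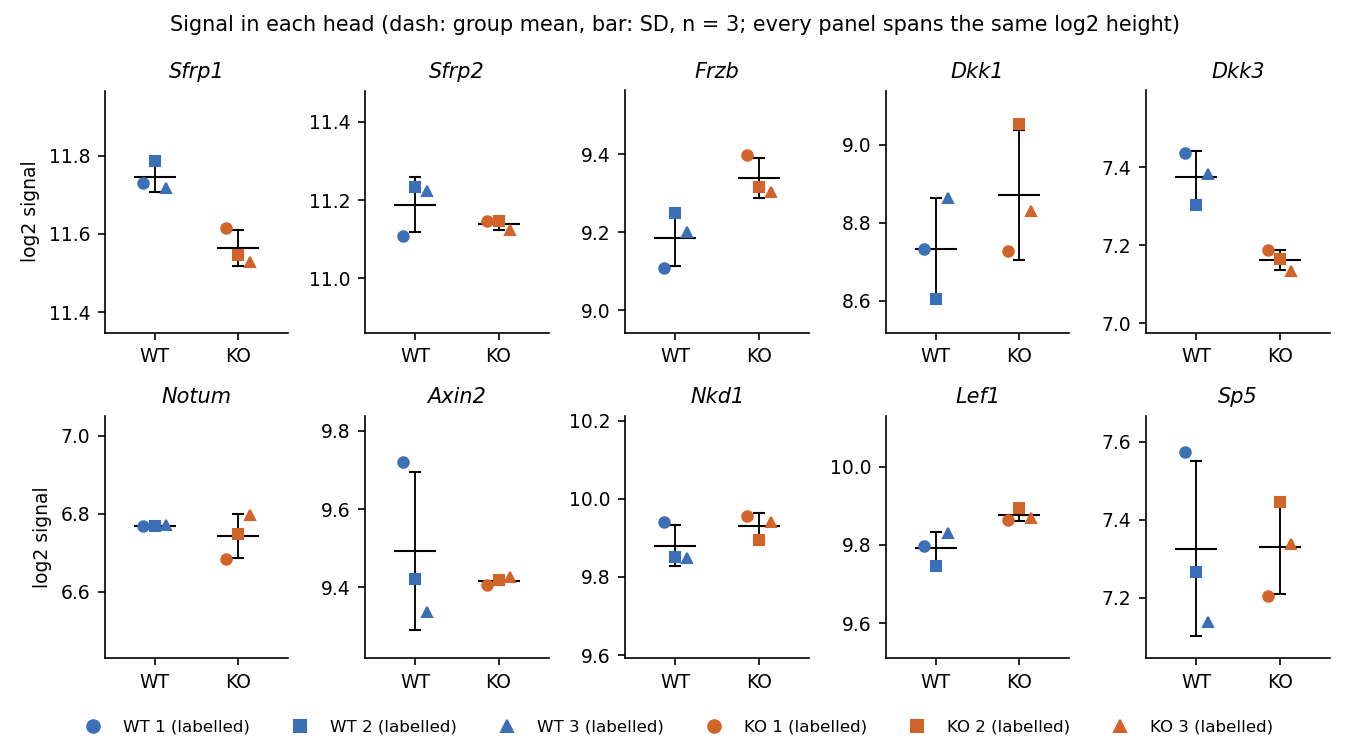
Log2 signal of each of the 10 genes (one panel each, every panel with the same log2 height) in the 3 WT-labelled (blue) and 3 KO-labelled heads (orange); symbols give the replicate number, dashes the group means and bars the SD. Sfrp1 and Dkk3 lie lower in every KO-labelled head than in any WT-labelled head, Frzb and Lef1 higher, and Axin2 and Sp5 are set apart mainly by WT 1.

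Sfrp1, which encodes a secreted Frizzled-like protein of the forebrain neuroepithelium, had the smallest p of the 10, with a probe set brighter than 97.2% of those tested. It read 11.73, 11.79 and 11.72 in WT 1, WT 2 and WT 3. In KO 1, KO 2 and KO 3 it read 11.62, 11.55 and 11.53. Every KO-labelled head was below every WT-labelled head, and the gap between the groups was larger than the range within the WT-labelled group. The difference was −0.18 (SE 0.04, 95% interval −0.27 to −0.09; 0.88 times), with an unadjusted limma p of 0.0014 and an adjusted p of 0.37, and an exact permutation p of 0.1, the smallest that 3 against 3 heads can give. Without WT 1 the difference was −0.19 and without WT 2 it was −0.16, and over all 6 omissions of a head it ran from −0.21 to −0.16. Of all probe sets tested, 3.63% had a lower difference. With limma run without its mean-variance trend, the unadjusted p of Sfrp1 was 0.011, and Dkk3 had the smallest of the 10, 0.0057. Among the 8 measured genes of the neuroepithelial marker list, the median difference was 0.00062, and the log2 of their summed signal ran from 13.49 to 13.67 in WT-labelled and from 13.49 to 13.55 in KO-labelled heads. The forebrain genes Lhx2 and Emx2 of that list also had an unadjusted limma p under 0.05, both lower. Of these, Lhx2 lies on chromosome 2, as Tasp1 does. The part of Lhx2 and Emx2 in the Sfrp1 difference was not tested.

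Sfrp2, its close relative in the same tissue, had a smaller difference, with a probe set brighter than 94.98% of those tested. It read 11.11, 11.23 and 11.22 in WT 1 to WT 3, and 11.15, 11.15 and 11.12 in KO 1 to KO 3. The KO-labelled heads lay within the range of the WT-labelled heads, of which WT 1 was the lowest. The difference was −0.05 (SE 0.05, 95% interval −0.15 to 0.05; limma adjusted p = 0.91). Without WT 1 it was −0.09 and the groups no longer overlapped (unadjusted p = 0.048 in limma).

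Frzb, the third Frizzled-related gene, also called Sfrp3, is known for its expression in cartilage precursors and mesenchyme as well as in neural tissue. It read 9.11, 9.25 and 9.20 in WT 1 to WT 3, and 9.40, 9.32 and 9.30 in KO 1 to KO 3. Every KO-labelled head was above every WT-labelled head, opposite to Sfrp1. The difference was +0.15 (SE 0.06, 95% interval 0.02 to 0.29; 1.11 times), with an unadjusted limma p of 0.028 and an adjusted p of 0.79. Without WT 1, the lowest head, it was +0.12 (unadjusted p = 0.081), and it was +0.12 without KO 1, the highest (unadjusted p = 0.11). Frzb lies on chromosome 2, as Tasp1 does, where 8.2% of probe sets had an unadjusted p under 0.05 against 6.05% on the other chromosomes; the part of that position in the Frzb difference was not tested. Markers of cranial mesenchyme and neural crest had a median difference of −0.0034 over 10 genes, with summed log2 signals of 12.93 to 13.08 in WT-labelled and 12.90 to 13.17 in KO-labelled heads. Of these 10, the matrix gene Dcn was higher (+0.36) and the neural crest gene Sox10 lower (−0.38), each with an unadjusted limma p under 0.05, and the groups of Sox10 did not overlap; their part in the Frzb difference was not tested.

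The differences of the 3 Frizzled-related genes were also set against each other. That of Sfrp1 was 0.33 log2 units below that of Frzb and 0.13 below that of Sfrp2, and that of Sfrp2 was 0.20 below that of Frzb. For each of these 3 pairs the within-head difference was lower in every KO-labelled head than in any WT-labelled head (exact permutation p = 0.1 for each, the smallest possible, and 0.1 after adjustment over the 3 pairs). No pair thus passed a threshold of 0.05, which 3 against 3 heads cannot reach by this test. For Sfrp1 against Frzb the result was fixed, since the groups of each gene did not overlap and lay in opposite directions. The 3 pairs are built from the same 3 genes and are not independent, so they add no support to the differences of the single genes.

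Dkk3, a divergent member of the Dickkopf family whose action on WNT signalling is less settled, was dim, brighter than 42.6% of probe sets. It read 7.44, 7.30 and 7.38 in WT 1 to WT 3, and 7.19, 7.16 and 7.13 in KO 1 to KO 3. The groups did not overlap, with the KO-labelled heads lower and close together. The difference was −0.21 (SE 0.07, 95% interval −0.37 to −0.06; 0.86 times; limma unadjusted p = 0.013, adjusted p = 0.70), and with each head left out in turn it ran from −0.25 to −0.18. At this signal the share that is background is not known, so the ratio describes signal and may not hold for transcript numbers.

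Dkk1, the Dickkopf antagonist that the anterior head needs in order to form, had the widest range over the heads among the 10 genes. It read 8.73, 8.60 and 8.86 in WT 1 to WT 3, and 8.73, 9.05 and 8.83 in KO 1 to KO 3. The groups overlapped, KO 2 being the highest head and WT 2 the lowest, and the range over the 6 heads was 0.45. The difference was +0.14 (SE 0.09, 95% interval −0.07 to 0.34; limma adjusted p = 0.88), and it was +0.05 without KO 2.

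Notum was dim, brighter than 35.3% of probe sets, and the only one of the 10 below the brightness of 7.06 that marks the lowest 40%. It read 6.77 in each WT-labelled head and 6.68, 6.75 and 6.80 in KO 1 to KO 3. The KO-labelled heads lay on both sides of the WT-labelled ones. The difference was −0.03 (95% interval −0.18 to 0.13; limma adjusted p = 0.97).

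**Figure D2:**
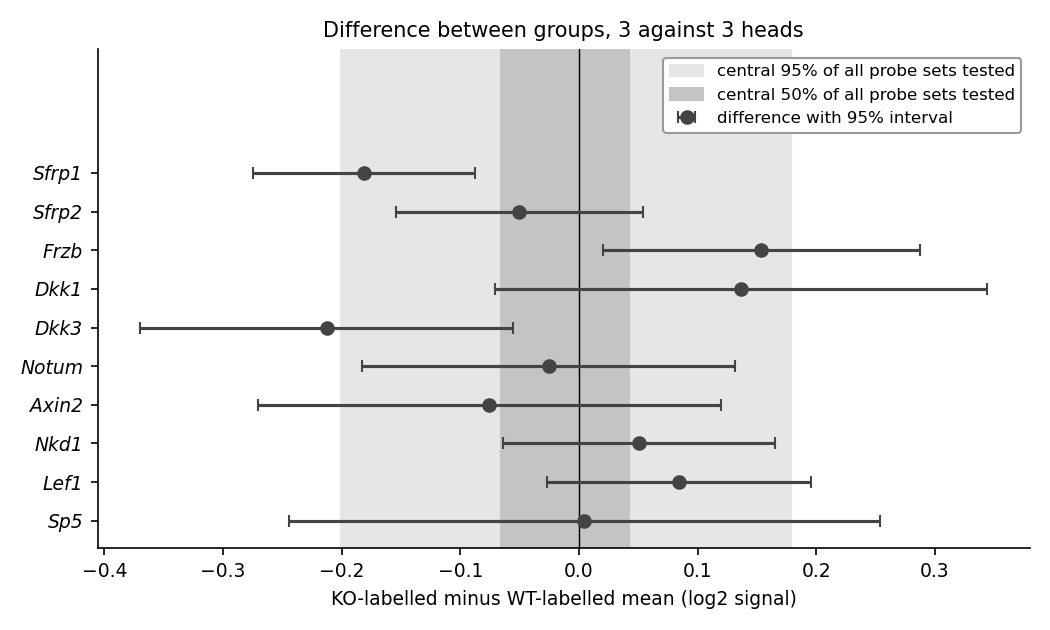
Difference of the group means (KO-labelled minus WT-labelled, log2 signal) for each of the 10 genes with its 95% interval from limma; grey bands hold the central 50% and 95% of the differences of all probe sets tested. The intervals of Sfrp1, Dkk3 and Frzb leave out 0, with Frzb on the higher side, and only Dkk3, at −0.21, has its point outside the wider band.

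Among the feedback genes, AXIN2 is a scaffold of the complex that destroys β-catenin. Axin2 read 9.72, 9.42 and 9.34 in WT 1 to WT 3, and 9.41, 9.42 and 9.43 in KO 1 to KO 3. The KO-labelled heads were nearly equal and WT 1 alone was high. The difference was −0.08 (SE 0.09, 95% interval −0.27 to 0.12; limma adjusted p = 0.92), and without WT 1 it turned to +0.038.

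Sp5 encodes a zinc finger factor that represses other WNT targets, and its probe set was dim, brighter than 43.4% of those tested. It read 7.57, 7.27 and 7.14 in WT 1 to WT 3, and 7.21, 7.45 and 7.34 in KO 1 to KO 3. WT 1 was again the highest head, and the KO-labelled heads lay inside the range of the WT-labelled heads. The difference was 0.0045 (SE 0.11, 95% interval −0.24 to 0.25; limma adjusted p = 0.997), and its sign turned with quantile normalization and with median centring. Sp5 also lies on chromosome 2, and as with Dkk3 the share of its signal that is background is not known.

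NKD1 binds Dishevelled and damps the signal inside the cell. Nkd1 had the smallest range of the 10 over all heads, 0.108, close to the 0.111 of Notum. It read 9.94, 9.85 and 9.85 in WT 1 to WT 3, and 9.96, 9.89 and 9.94 in KO 1 to KO 3. The groups overlapped through WT 1. The difference was +0.05 (SE 0.05, 95% interval −0.06 to 0.17; limma adjusted p = 0.92).

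LEF1 is a DNA-binding partner of β-catenin. Lef1 read 9.80, 9.75 and 9.83 in WT 1 to WT 3, and 9.86, 9.89 and 9.87 in KO 1 to KO 3. Every KO-labelled head was above every WT-labelled head, by a small margin. The difference was +0.08 (SE 0.05, 95% interval −0.03 to 0.20; 1.06 times), with an unadjusted limma p of 0.12, an adjusted p of 0.87 and an exact permutation p of 0.1. It had an unadjusted p under 0.05 only in the ordinary linear model per probe set, where it was 0.032.

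The spread between heads was shared by some of the genes. Axin2 and Sp5 were both highest in WT 1 and lowest in WT 3 (Pearson r = 0.85 and Spearman rho = 0.83 over the 6 heads), and without WT 1 r was 0.73. Without the 2 heads farthest from the Axin2 median, r was 0.57. In WT 1, Wnt1 (7.90), Fgf8 (8.46) and the midbrain gene En1 (8.14) also had their highest signals; in the other heads these reached at most 7.82, 8.27 and 8.13. Pax2, a further gene of the midbrain and hindbrain border, was instead lowest in WT 1 (7.71, against 7.88 to 8.08 in the other heads), so genes of this region did not all move together there. These 4 genes were picked after their values were seen. Wnt1 and Fgf8 mark the organizer at the back of the midbrain, and their part in the high Axin2 and Sp5 signals of WT 1 was not tested. Dkk1 and Lef1 were both lowest in WT 2 and highest in KO 2 (r = 0.80, rho = 0.71), though without the 2 heads farthest from the Dkk1 median r was 0.21. WT 2 is also the head with high Xist, and Sfrp1 was highest there. Without WT 2 the group difference was +0.07 for Dkk1, +0.06 for Lef1 and −0.16 for Sfrp1. The part of sex in these values was not tested. Sfrp1 and Lef1 ran opposite ways (r = −0.92, rho = −0.94), in part since their groups did not overlap, and after the group means were taken out r was −0.69. Of all 45 pairs, 6 had an r of at least 0.8 in either direction, a count without a share over other pairs beside it. The others among these 6 were Sfrp2 with Nkd1 (r = −0.90, rho = −0.64), Frzb with Dkk3 (r = −0.89, rho = −0.77) and Sfrp1 with Dkk3 (r = 0.84, rho = 0.83). With the group means taken out r was −0.86, −0.54 and −0.22 for these, so that of Sfrp1 with Dkk3 turned. These correlations come from 6 arrays and are given as descriptions.

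**Figure D3:**
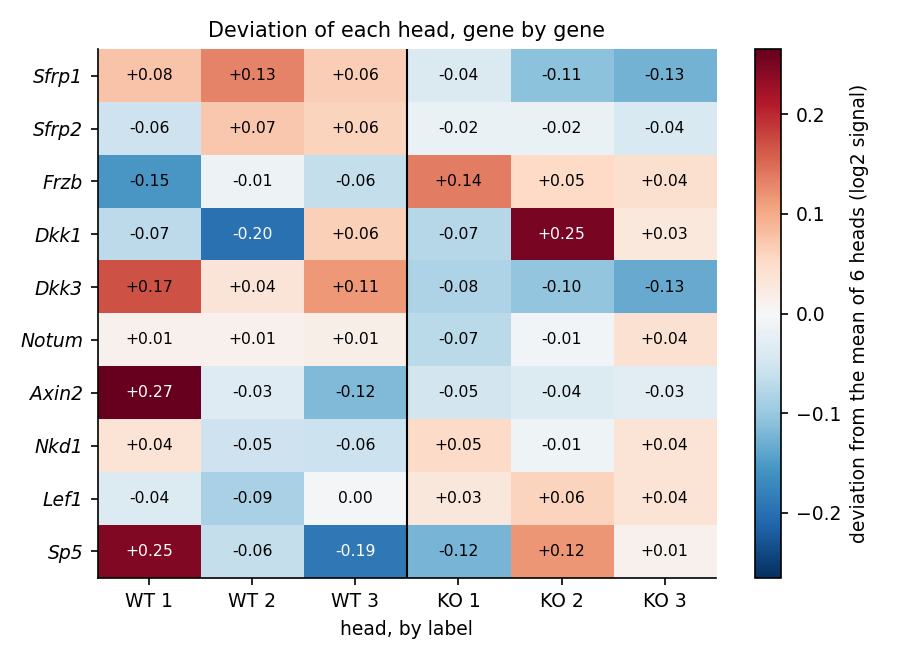
Deviation of each head (columns, by label) from the mean of the 6 heads for each gene (rows), in log2 signal, red where higher and blue where lower. WT 1 carries the high Axin2 and Sp5 signals, KO 2 the high Dkk1 signal, and only Sfrp1, Dkk3, Frzb and Lef1 change colour cleanly between the groups.

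**Figure D4:**
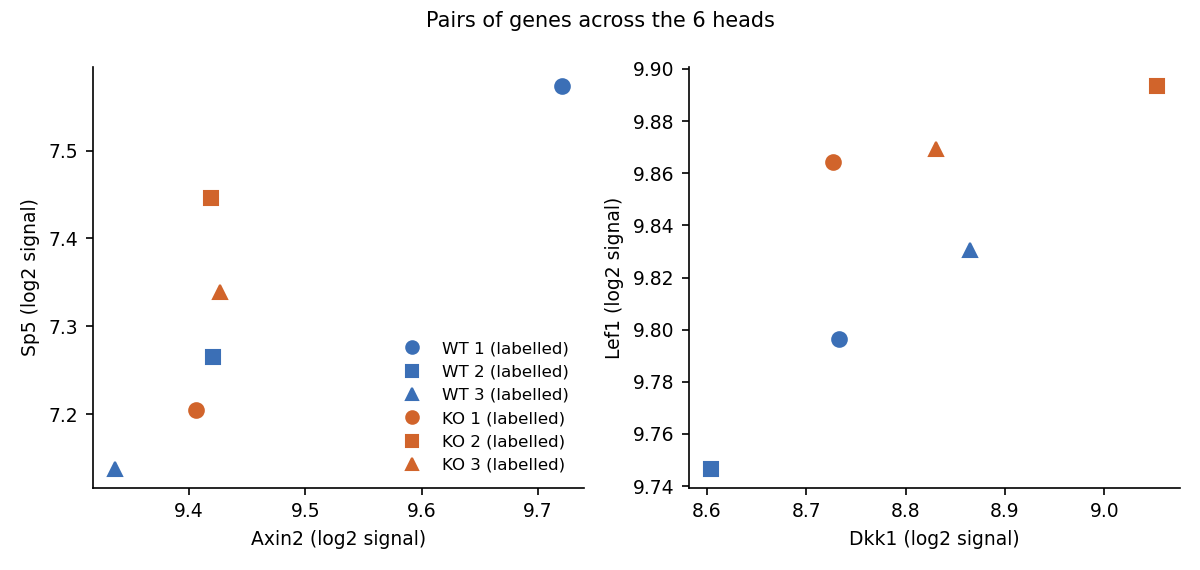
Log2 signals of Sp5 against Axin2 (left) and of Lef1 against Dkk1 (right), 1 point per head. WT 1 lies far from the others in the left plot, while the right plot runs from WT 2 at the lower left to KO 2 at the upper right.

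As context, the bases before the start of these genes were also read, and no link between them and the correlations was tested. RefSeq windows in assembly GRCm38.p6 were found for 7 of the 10 genes, and 10 windows in all, each cut to the 250 bases before the annotated start. Those of Axin2, Sp5 and Dkk1 are printed 5′ to 3′ along the gene, with matches to a TCF/LEF-type word in capitals. The word searched was CTTTGNN, with A or T in each place marked N, on both strands, and no match overlapped another.
Axin2, chr11:108920099-108920348, plus strand: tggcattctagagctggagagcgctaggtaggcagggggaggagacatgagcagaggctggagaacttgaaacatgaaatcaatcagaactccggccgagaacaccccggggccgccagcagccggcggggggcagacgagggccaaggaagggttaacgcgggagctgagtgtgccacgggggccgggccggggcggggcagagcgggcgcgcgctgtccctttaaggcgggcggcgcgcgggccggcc
Sp5, chr2:70474673-70474922, plus strand: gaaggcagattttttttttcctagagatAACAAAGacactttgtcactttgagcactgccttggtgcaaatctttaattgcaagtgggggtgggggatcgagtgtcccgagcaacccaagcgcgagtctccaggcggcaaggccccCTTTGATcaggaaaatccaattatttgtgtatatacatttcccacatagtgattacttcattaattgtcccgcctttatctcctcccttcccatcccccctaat
Dkk1, chr19:30549497-30549746, minus strand: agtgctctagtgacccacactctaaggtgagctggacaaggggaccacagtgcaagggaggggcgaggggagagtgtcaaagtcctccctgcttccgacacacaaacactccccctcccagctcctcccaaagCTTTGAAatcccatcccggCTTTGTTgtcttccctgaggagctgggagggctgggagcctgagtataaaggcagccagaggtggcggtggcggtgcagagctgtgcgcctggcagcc
Sp5 held CTTTGAT on the gene's strand, 104 to 98 bases before the start, and CTTTGTT on the other strand, 222 to 216 bases before it. Dkk1 held CTTTGAA at 117 to 111 and CTTTGTT at 98 to 92 bases before the start, both on the gene's strand. The Axin2 window held no match, which says only that these letters are not in these bases. Of all 32851 such windows in the table, 14.8% held the word at least 1 time, as did 3 of the 10 windows of these genes, 1 each of Sp5, Dkk1 and Lef1; Lef1 had 4 windows, and the match was in the last. A match is a description of letters and not a binding site.

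By the rule for likeness, the genes closest to Sfrp1 over the 6 heads, among the brighter 60% of probe sets, were Ninj1 (Pearson r = 0.996), Hivep1 (0.984) and Ctbp1 (0.982), with differences of −0.13, −0.05 and −0.08. Closest to Lef1 were Nxpe3 (0.994), Slc39a14 (0.993) and Impact (0.986), with differences of +0.14, +0.09 and +0.10. None of these 6 had an unadjusted limma p under 0.05. With 13073 candidates and 6 heads, correlations of this size are a description of these arrays.

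The rest of the pathway was read through a list of 81 other genes, of which 80 had a probe set with 1 symbol (81 probe sets; Tcf7 was without one). With limma 0 of the 81 passed the adjusted threshold. At an unadjusted p under 0.05, 10 (12.3%) were lower and 1 was higher, beside the 3.89% and 2.32% of all probe sets, and the median difference was −0.03. The count of 10 was 6 (7.41%) without WT 1, 6 without WT 2, 5 (6.17%) without KO 2 and 5 in the ordinary linear model. Over all probe sets the lower share moved as well, to 2.76%, 3.54%, 2.06% and 3.35% in the same order. The groups did not overlap for 7 lower and 3 higher of the 81, or 12.3% together, near the 10.9% of all probe sets. The 10 lay at the level of ligands, their receptors and secreted modulators. None of the 30 probe sets of the cytoplasmic relay, of TCF factors and co-activators or of further feedback targets had an unadjusted limma p under 0.05. Over all probe sets the share was 6.21%, so with so few probe sets this count does not set these roles apart from the rest. The groups did not overlap for 13.3% of the 30, beside the 10.9% of all probe sets.

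R-spondins bind LGR receptors and keep Frizzled receptors at the cell surface, and this role held the largest differences. All 7 of its genes had a difference below 0, with a median of −0.17, where 56.3% of all probe sets lay below 0. Rspo3 read 9.24, 9.07 and 9.17 in WT 1 to WT 3, and 8.87, 8.90 and 8.73 in KO 1 to KO 3. Rspo1 read 9.89, 9.67 and 9.72 in WT-labelled and 9.50, 9.47 and 9.38 in KO-labelled heads. Both had every KO-labelled head below every WT-labelled head, as did the receptor gene Lgr4 (−0.17), which lies on chromosome 2. Unadjusted limma p-values were 7.4e-04 for Rspo3, 8.2e-04 for Rspo1 and 0.017 for Lgr4, and their adjusted p-values were 0.33, 0.34 and 0.74. Lgr5, itself a WNT target, differed by −0.0012.

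Of the WNT ligands (20 probe sets, median −0.05), Wnt9a (−0.22), Wnt3a (−0.25) and Wnt8b (−0.17) had an unadjusted limma p under 0.05, from 0.018 to 0.034, and an adjusted p of at least 0.75. Wnt3a and Wnt8b mark the cortical hem and dorsal midline, and their groups overlapped; Wnt3a was dim, brighter than 39.7% of probe sets. Of the receptors (15 probe sets, median −0.03), Fzd7 (−0.19), Fzd8 (−0.18) and Fzd1 (−0.21) were the lower ones (limma adjusted p = 0.70 for Fzd7 and Fzd8, and 0.78 for Fzd1), while the co-receptor genes Lrp5 (−0.03) and Lrp6 (+0.03) had intervals that included no difference. Of the further secreted antagonists (9 genes, 5 among the dimmest 40%), Draxin differed by −0.21 and Sostdc1 by +0.18, so that here too antagonists stood on both sides (limma adjusted p = 0.78 and 0.79). In the cytoplasmic relay (14 genes, median +0.03) β-catenin's own gene Ctnnb1 differed by −0.05. There 2 genes had groups that did not overlap, both higher: the kinase gene Csnk1a1 (+0.10) and Apc (+0.09). That was a share of 14.3%, beside 10.9% of all probe sets (4.15% higher and 6.76% lower). Of TCF factors and co-activators (7 genes, median −0.02), 1 had groups that did not overlap, Pygo1 (−0.07), which was lower (14.3%). Among further feedback targets (9 genes, median −0.01) Znrf3, a ligase that removes Frizzled receptors, was the 1 gene with non-overlapping groups (11.1%), at +0.09, and Nkd2, Apcdd1 and Ccnd1 differed by −0.03, +0.05 and −0.01.

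**Figure D5:**
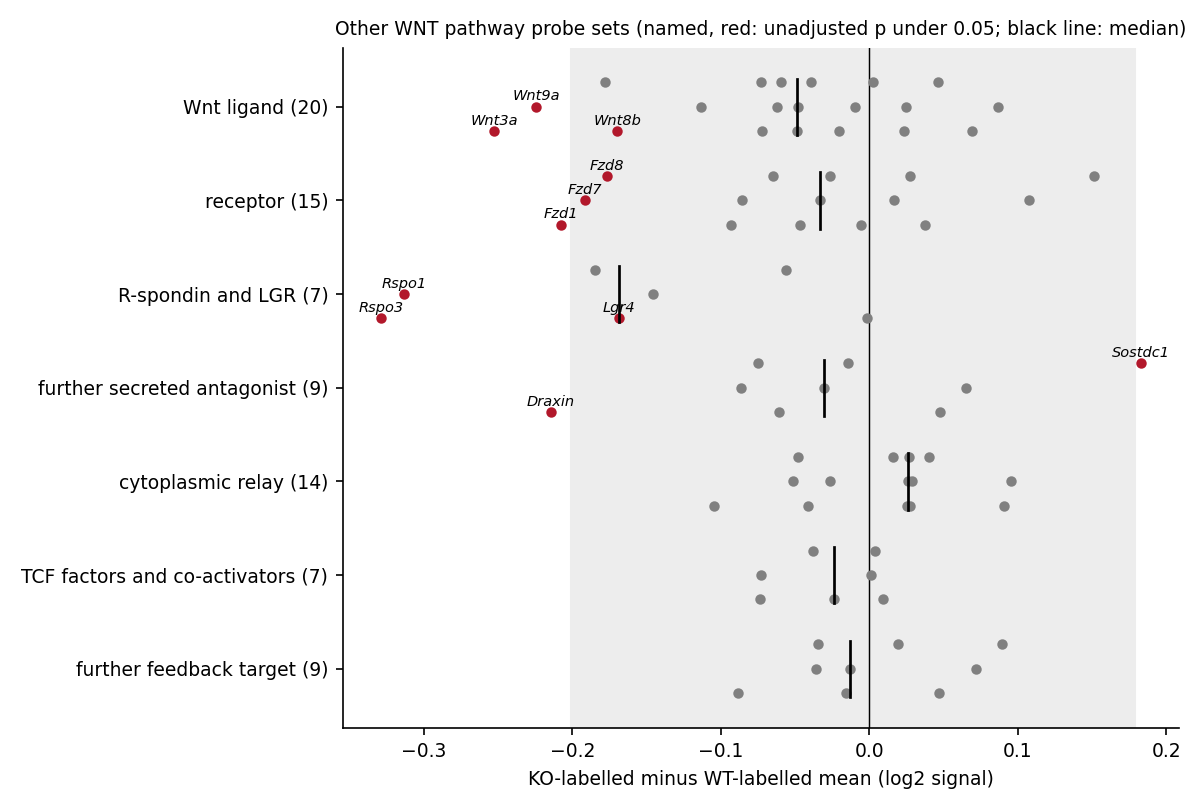
Difference of the group means (KO-labelled minus WT-labelled, log2 signal) for 81 probe sets of other WNT pathway genes, grouped by role with the number of probe sets in brackets; red, named points have an unadjusted limma p under 0.05, black lines are medians, and the grey band holds the central 95% of all probe sets tested. Rspo3, Rspo1, Wnt3a, Wnt9a, Draxin and Fzd1 lie below the band and Sostdc1 above it, while the cytoplasmic relay and the feedback targets lie inside it.

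Markers of other cell types that the tissue could hold were read beside these genes. Roof plate and cortical hem markers (7 genes, Wnt3a and Wnt8b among them) had a median difference of −0.0034, and summed log2 signals of 11.22 to 11.37 in WT-labelled and 11.19 to 11.28 in KO-labelled heads. Neuronal markers (7 genes, median −0.12) ran from 12.71 to 12.97 and from 12.51 to 12.93, and endothelial markers (7 genes, median 0.00092) from 12.02 to 12.13 and from 12.02 to 12.07. Macrophage markers (6 genes, median −0.08) ran from 10.22 to 10.33 and from 10.10 to 10.22, and erythroid markers (4 genes, median −0.15) from 13.86 to 13.99 and from 13.76 to 13.88. Surface ectoderm markers (6 genes, median −0.05) ran from 11.67 to 11.92 and from 11.61 to 11.71, and hindbrain markers (5 genes, median −0.07) from 8.54 to 8.79 and from 8.46 to 8.70. The summed signals of the groups overlapped in every list, barely so for the macrophage markers. Gene by gene, 10 of the 60 markers over all lists (16.7%) were lower at an unadjusted limma p under 0.05 and 2 were higher, beside the 12.3% lower among the other WNT genes and 3.89% over all probe sets. Besides those already named, the lower ones were Neurod1 of the neuronal list (−0.46, on chromosome 2), Cldn6 of the surface ectoderm (−0.32) and Ramp2 of the endothelium (−0.32). C1qb of macrophages (−0.30) and the erythroid globin Hbb-bh1 (−0.21) were lower as well, while Cdh1 was higher (+0.16). Wnt3a and Wnt8b are counted in both lists, and of the 56 markers on no WNT list 8 (14.3%) were lower. The share of lower genes among the markers was no smaller than among the other WNT genes. Among the 10 members it was 20%, or 2 genes. The part of any of these cell types in the differences above was not tested.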

How the data were processed

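RNA from 6 heads was labelled from 100 ng of total RNA each, per the labels' protocols, and read on 1 Affymetrix array per head. The deposited table holds log2 signals, 1 per probe set and array. Affymetrix Expression Console and MAS5 appear in the submitters' processing notes; their versions and roles, background correction and scaling are not stated there. The values were used as deposited. Array medians ran from 7.35 in WT 1 to 7.45 in KO 1, a spread that is not small beside the smaller member differences. Median centring and quantile normalization are among the alternatives below. The number of arrays limits the precision.

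Probe sets were named from the platform annotation: 21789 had 1 symbol, 1621 had several and 12146 were not listed; chromosomes came from the GRCm38.p6 gene table, which held 21698 of the first. The groups were compared with limma 3.58.1 (R 4.3.3; lmFit, eBayes with a mean-variance trend) over all probe sets with 1 symbol. On simulated data of this size, 34 of 67 planted changes of 1.25-fold, 66 of 67 of 1.5-fold and 66 of 66 of 2-fold were recovered. Beside these 34, 66 and 66 calls, 17 unchanged probe sets were called as well, with 21789 probe sets in all. The draws were normal, with the spread of each probe set as limma smoothed it, and held no effects shared by an array. They also took probe sets as independent, so these shares may overstate what could be recovered from the real heads.

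The 10 genes and the lists were chosen with earlier results of these data known. Text names all 10, Tasp1, up to 3 pathway genes per role with the smallest unadjusted p under 0.05, and the 3 genes most like Sfrp1 and Lef1, the antagonist and the feedback gene with the smallest p; other names were added after values were seen. The labels number replicates 1 to 3 in both groups without stating a pairing. Figures used matplotlib 3.10.9.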

Additional observations from a re-analysis of the deposited data

How the results depend on the processing

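Over 18 alternatives 0 members passed the adjusted threshold in limma or in the ordinary linear model. The differences of Sfrp1, Sfrp2, Frzb, Dkk1, Dkk3, Nkd1 and Lef1 kept their sign in every alternative run. The Sp5 difference was −0.024 with quantile normalization and −0.022 with median centring, and ran from −0.089 to 0.13 with each head left out in turn. Left out in turn, the heads gave −0.15 to 0.038 for Axin2 and −0.052 to 0.0037 for Notum. Higher members at an unadjusted p under 0.05 numbered 0 with median centring, 2 in the ordinary linear model and 0 with the replicate block, and 0 to 1 with a head left out. Non-overlapping higher members numbered 1 with median centring. Of the other WNT genes, 5 were lower in the ordinary linear model, and 5 to 11 with a head left out. Higher ones numbered 0 with median centring, with all probe sets, without the variance trend and with the replicate block, 2 with the 40% filter, with or without 1 probe set per gene, 3 with array quality weights (chosen after seeing the data), and 0 to 3 with a head left out. The cause was not tested. Notum was not tested under the 40% filter. Deviations of same-numbered heads were not alike (correlations −0.21, −0.12 and −0.23), so the number was not used as a block; with it, Sfrp1 had an unadjusted limma p of 0.0054 and 10 other WNT genes were lower.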
